A study of Mus musculus with 36 samples.

Results

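The data describe DNase I accessibility around 9 genes of pre-B receptor signalling in B3, a mouse pre-B cell line. Sites were taken as members when they overlapped the body of Cd79a, Cd79b, Syk, Blnk, Lyn, Blk, Plcg2, Pik3ap1 or Ptpn6 in the GENCODE vM21 annotation, extended by 10 kb on each side. This gave 76 DNase hypersensitive sites (DHS, stretches where DNase I cuts open chromatin) of the 52788 in the table. The pre-B receptor pairs an immunoglobulin heavy chain with a surrogate light chain and signals through Cd79a and Cd79b, whose cytoplasmic tails carry the tyrosine motifs that Src-family kinases and Syk phosphorylate. Blnk, Plcg2 and Pik3ap1 carry the signal on to calcium, Ras and PI3 kinase, and Ptpn6 removes phosphates and limits it. Ikaros, the factor induced here, is a zinc finger regulator of lymphoid genes that takes part in the passage of pre-B cells from cycling to rest.

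DNase-seq was measured in 36 libraries, 18 of an Ikaros line and 18 of a control line, with 3 replicates for each line at each of 6 times (0, 2, 6, 12, 18 and 24 h). The Ikaros line was B3 transduced with a retroviral MSCV vector for HA-Ikaros-ERt2-IRES-GFP, in which haemagglutinin-tagged Ikaros is fused to the hormone-binding domain of the estrogen receptor, and the control line carried the same backbone with ERt2 and GFP but no Ikaros. Both lines were pools of transduced cells sorted for GFP and not single clones. The labels name 4-hydroxytamoxifen, the ligand of ERt2 that lets the fusion enter the nucleus, at 0.5 µM for every sample, whereas by the study's methods the cells of 0 h had no drug and came from separate collections. Replicates 4, 5 and 6 belong to batches 11, 12 and 13.

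Values are log2 of a read density (RPKM scaled by TMM, then corrected for unwanted variation with ARSyN by the authors), so that they are per DHS length. The authors called narrow and broad DHS in separate rounds, and the part of width in levels set beside each other between sites was not tested. Differences are Ikaros minus control on that scale. They were tested with limma over all 52788 DHS, two-sided, and "called" means a Benjamini-Hochberg adjusted p below 0.05. Library medians lay between 3.90 and 4.11. Over the member DHS the median SD between replicates at 2 h was 0.205 in Ikaros and 0.389 in control cells, and it was smaller in Ikaros cells at each of the 6 times. Its part in the results was tested only by a fit with a spread per group. In these bulk libraries, more cells with an open site and a more open site in each cell cannot be told apart.

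The labelled cell type was checked against promoter DHS of marker genes. Of 8 B-lineage genes 6 had one, at mean levels of 3.91 to 5.99, with Ebf1 and Pax5 the highest, while Rag2 and Dntt had none. Among the other lists 1 of 6 T-lineage genes (Lck, 4.24), 1 of 5 myeloid genes (Lyz2, 3.29), 1 of 3 erythroid genes (Klf1, 4.59) and 0 of 3 genes of other tissues had one. A promoter DHS states only that the site is in the table.

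The sites were spread unevenly over the genes. Plcg2 held 15 DHS and Pik3ap1 14, followed by Syk with 12, Lyn with 9, Cd79b with 7, Ptpn6 with 6, Blnk with 5, and Cd79a and Blk with 4 each. Of the 76, 15 lay within 1000 bp of a transcription start site of the member gene (own promoter), 6 at the promoter of a neighbour (Arhgef1, Gh, Tm9sf3 and the shared start of Emg1 and Phb2), 40 in gene bodies of which 2 touched exons, and 15 in the flanks. Blk, a Src-family kinase of B cells, was the one gene of the 9 with no promoter DHS. Mean levels over all libraries ran from 3.00 to 5.56 with a median of 4.32, against a median of 3.95 over all DHS.

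The sequences of 6 sites are printed because the results turn on them. The first pair are intronic DHS of Blk that were more accessible in Ikaros cells, the third is an intronic DHS of Syk with the same direction, and the others are own promoters, of which those of Pik3ap1 and Ptpn6 were less accessible in Ikaros cells and that of Cd79a was not called. They were read from the RefSeq copy of GRCm38 (mm10) on the strand of the gene, 5′ to 3′, at most the central 300 bases and without annotated exons. Capitals mark matches on either strand to TGGGAA (Ikaros core), TCCCNNGGG (Ebf1), GAGGAA (PU.1 core), CACGTG (the E-box of Myc and Max) or CAGGTG (the E-box of E proteins). Matches can overlap. The file does not state whether a start counts from 0 or 1, which leaves 1 bp open.
Blk intron, chr14:63377436-63377735, minus strand: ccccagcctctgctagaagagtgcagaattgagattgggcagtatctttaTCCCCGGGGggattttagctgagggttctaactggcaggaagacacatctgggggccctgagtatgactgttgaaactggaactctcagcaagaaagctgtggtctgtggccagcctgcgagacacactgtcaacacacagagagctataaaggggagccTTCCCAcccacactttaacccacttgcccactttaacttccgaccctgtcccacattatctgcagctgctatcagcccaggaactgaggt
Blk intron near the gene start, chr14:63411635-63411771, minus strand: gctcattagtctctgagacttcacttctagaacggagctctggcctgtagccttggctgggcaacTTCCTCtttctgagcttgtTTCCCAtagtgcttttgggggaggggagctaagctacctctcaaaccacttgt
Syk intron, chr13:52600313-52600612, plus strand: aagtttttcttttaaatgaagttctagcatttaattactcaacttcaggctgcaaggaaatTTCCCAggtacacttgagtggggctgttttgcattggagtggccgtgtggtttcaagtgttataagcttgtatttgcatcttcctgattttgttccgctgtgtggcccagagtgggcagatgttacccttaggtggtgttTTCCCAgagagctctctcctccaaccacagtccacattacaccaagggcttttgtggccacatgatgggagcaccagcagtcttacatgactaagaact
Pik3ap1 promoter, chr19:41385280-41385579, minus strand: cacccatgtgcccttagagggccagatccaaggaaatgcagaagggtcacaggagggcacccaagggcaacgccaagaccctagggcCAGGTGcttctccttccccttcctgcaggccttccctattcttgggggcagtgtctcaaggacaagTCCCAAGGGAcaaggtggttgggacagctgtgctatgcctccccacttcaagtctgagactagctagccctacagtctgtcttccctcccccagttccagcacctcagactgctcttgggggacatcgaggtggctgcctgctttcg
Ptpn6 promoter, chr6:124738715-124738989, minus strand: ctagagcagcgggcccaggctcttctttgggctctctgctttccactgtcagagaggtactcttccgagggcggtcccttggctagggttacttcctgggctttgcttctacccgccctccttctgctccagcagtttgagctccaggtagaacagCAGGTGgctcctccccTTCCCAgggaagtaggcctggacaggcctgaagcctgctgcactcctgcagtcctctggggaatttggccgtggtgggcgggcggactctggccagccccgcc
Cd79a promoter, chr7:24897088-24897380, plus strand: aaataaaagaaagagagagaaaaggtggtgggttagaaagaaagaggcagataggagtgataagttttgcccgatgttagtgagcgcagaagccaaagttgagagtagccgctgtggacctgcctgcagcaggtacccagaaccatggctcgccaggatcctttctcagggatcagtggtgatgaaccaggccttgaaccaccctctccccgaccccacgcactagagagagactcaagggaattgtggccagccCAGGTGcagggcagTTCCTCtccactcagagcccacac

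In its printed bases the Blk intron of the first line held 1 match to the Ikaros core and 1 to the Ebf1 pattern. The second Blk intron held 1 Ikaros core match and the Syk intron 2. The Ptpn6 promoter, less accessible in Ikaros cells, also held 1 Ikaros core match. The Pik3ap1 promoter held 2 overlapping Ebf1 matches and no Ikaros core, and the Cd79a promoter held no Ikaros core. Matches were not compared between the sites called higher and those called lower. Over whole DHS wider than 200 bp and up to 600 bp, the Ikaros core was present in 21 of 39 members (53.8%) and in 37.9% of all DHS of that width. The PU.1 core was present in 66.7% of the 39 members and in 45.4% of all. Among DHS of at most 200 bp the Ikaros core was present in 15.2% of 33 members and in 12.4% of all, and among those over 600 bp in 1 of 4 members and in 45.7% of all. A match is a description of letters and says nothing of binding.

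Over the times with drug, accessibility differed between the lines at 19 of the 76 sites (25%), 11 more accessible and 8 less accessible in Ikaros cells. The comparison asks how these loci differed between the lines while the drug was present. Differences already there at 0 h enter it. It sets the 15 Ikaros libraries of 2 to 24 h against the 15 control libraries of the same times. In each line these are 5 times in 3 batches, which the main fit takes as separate libraries. Over all DHS 29.5% were called, 17.1% higher and 12.4% lower, so that the share of members was near the background. The sites called higher lay mostly in gene bodies, which held 40 of the 76 members. Of these 40 sites 22 had a difference below 0, and the median of the 40 was -0.015. Gene bodies gave 10 higher and 2 lower of 40, flanks 1 and 1 of 15, own promoters 0 higher and 3 lower of 15, and promoters of neighbours 0 higher and 2 lower of 6. Of all promoter DHS 11.3% were called higher and 16.0% lower, and of all other DHS 19.2% and 11.1%. The median difference was -0.08 over the 76 members and 0.04 over all DHS, and the sign of the members' median turned with quantile normalisation, to 0.01, so no direction is given for the genes as a group. The call count fell to 11 when either replicate 5 or replicate 6 was left out of all groups. The share of all DHS called fell as well, to 16.3% without replicate 5 and 15.1% without replicate 6. Of the 19 calls, 4 were held in every alternative run for them (the Blk site at 39.5 kb, the Syk sites at 17.3 and 41.1 kb and the Ptpn6 promoter), 12 were lost in 1 to 4 alternatives and 3 in more.

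**Figure D1:**
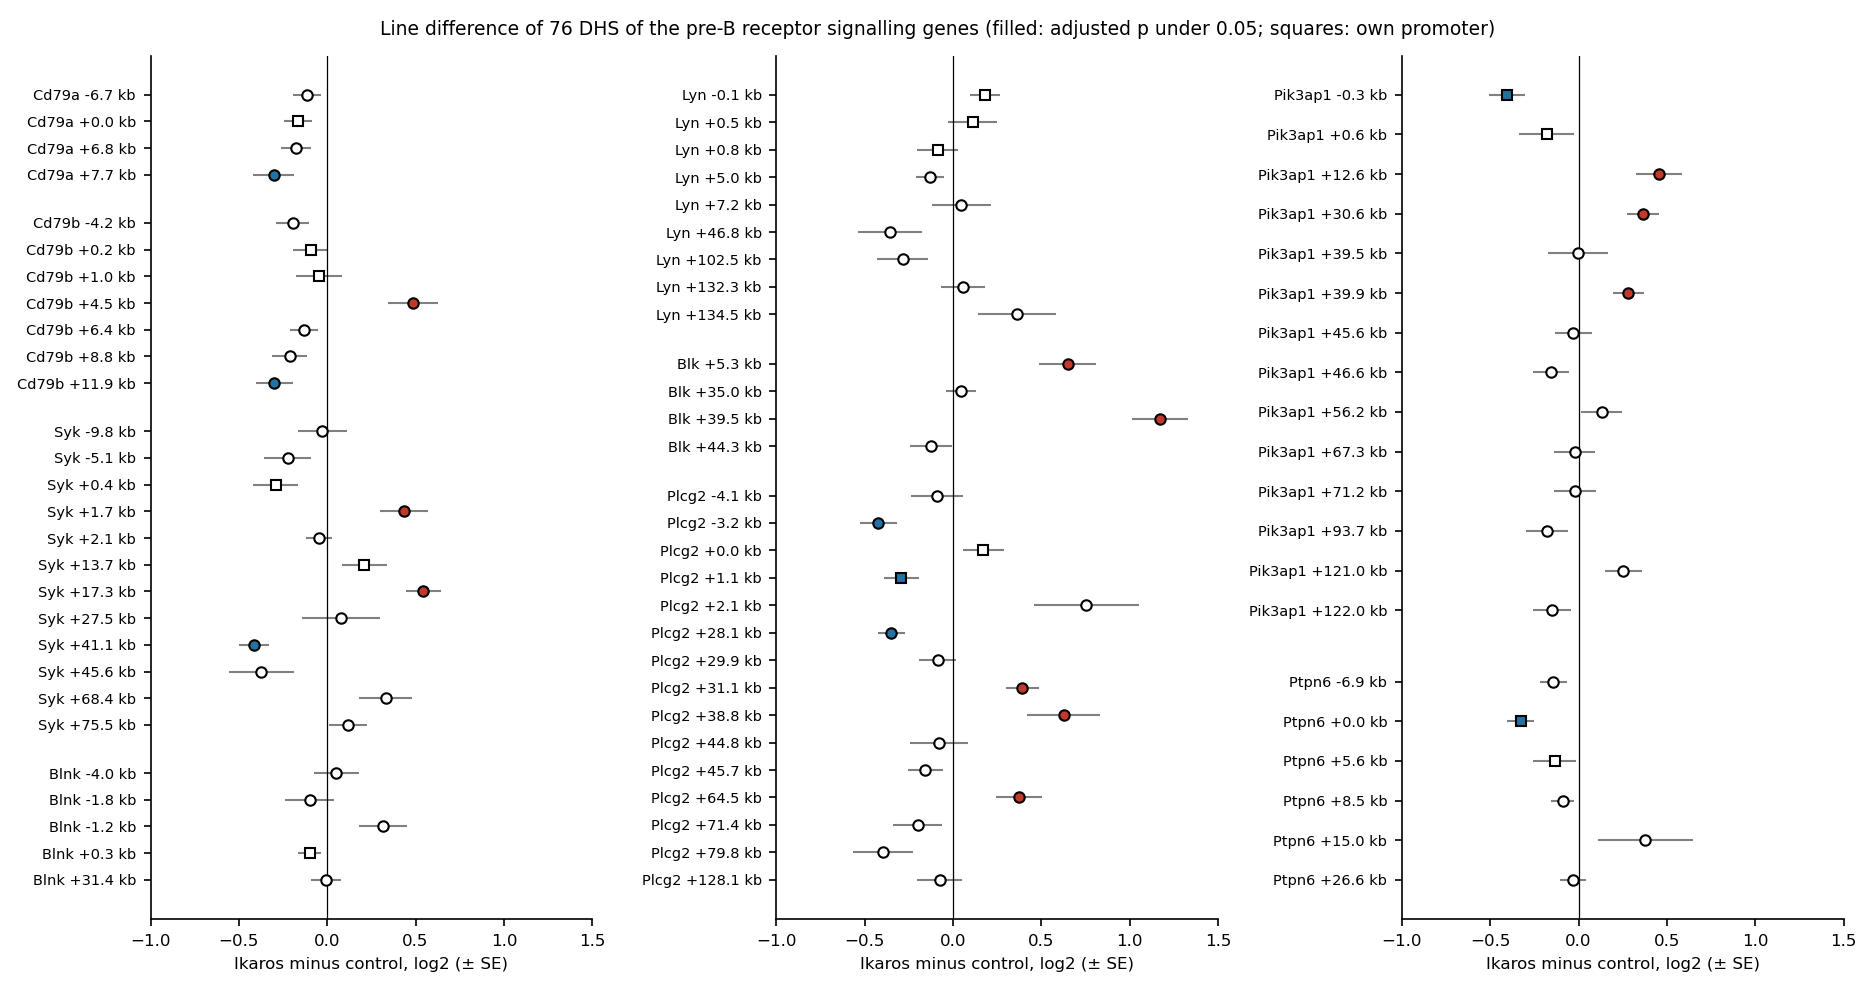
Ikaros minus control on the log2 scale, averaged over 2 to 24 h, for the 76 DHS in order along each gene, with bars of ± 1 SE from the limma fit. Labels give the distance of the DHS centre from the gene start in kb, squares are own promoters, and filled symbols have an adjusted p below 0.05; the Blk site at +39.5 kb lies farthest from 0, at 1.17, and no own promoter is filled on the right of 0.

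The largest difference was in an intron of Blk. This DHS (chr14:63377335-63377835) lies 39.5 kb downstream of the gene start in a gene of 44.2 kb. From 2 to 24 h the 15 Ikaros libraries ran from 3.49 through a median of 3.94 to 4.25, and the 15 control libraries from 1.77 through 2.78 to 3.40. Every Ikaros library lay above every control library, which held for 1 member and for 0.368% of all DHS. The averaged difference was 1.17 ± 0.16 (SE, adjusted p = 3.19e-06, limma), and it was called in 40 of 40 alternatives. The site was weak, with a mean level over all libraries of 3.38, at the 16.5 percentile of all DHS. The filter on the lowest levels removes it, so the call could not be tested under that filter, which the 40 leave out.

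At 0 h the same Blk intron stood at 4.13, 3.31 and 3.80 in Ikaros replicates 4, 5 and 6 and at 2.83, 3.80 and 3.71 in control. These libraries overlapped, and the difference was 0.30 ± 0.35 (SE, adjusted p = 0.619, limma). The Ikaros mean was lowest at 0 h and highest at 24 h, at 4.06, while the control mean was 3.45 at 0 h and ran between 2.47 and 3.08 at the later times. Within each line the F-test over the 6 times was not passed (adjusted p = 1 for Ikaros and 0.492 for control, limma), and the change of the line difference from 0 h to 24 h, 1.04 ± 0.50 (SE, adjusted p = 0.187), did not pass either. A difference between 0 h and the later times was therefore not shown.

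The Blk intron was also the only member called at a single time with drug. At 12 h the Ikaros libraries were at 3.81, 3.70 and 4.11 and the control libraries at 1.89, 3.03 and 2.50, with no overlap, and the difference was 1.40 (adjusted p = 0.0396, limma). At 24 h they were at 4.25, 3.88 and 4.05 against 3.07, 2.37 and 2.73, again with no overlap, with a difference of 1.34 (adjusted p = 0.0488, limma). Such separation of triplets, in either direction, was common, at 22.7% of all DHS at 12 h and 25.5% at 24 h. Both single-time calls were fragile. With the replicate number as a block both were lost (adjusted p = 0.0558 at 12 h and 0.0663 at 24 h), the 24 h call was lost without any 1 of the 6 libraries of that time, and the 12 h count went to 0 without any 1 of its libraries other than Control 12h replicate 5.

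The other DHS of Blk gave smaller values. The narrow intronic DHS 5.3 kb from the gene start (chr14:63411635-63411771) ran from 3.81 to 4.68 with a median of 4.36 in Ikaros cells and from 2.60 to 4.38 with a median of 3.70 in control cells from 2 to 24 h. The ranges overlapped, and the averaged difference was 0.65 ± 0.16 (SE, adjusted p = 0.00343, limma), lost only without replicate 6. At 0 h its difference was -0.23 (adjusted p = 0.721). The intronic DHS at 35.0 kb differed by 0.05 ± 0.08 and the one at 44.3 kb, which touches an exon at the gene end, by -0.12 ± 0.12, and neither was called. The difference among these sites was not itself tested.

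**Figure D2:**
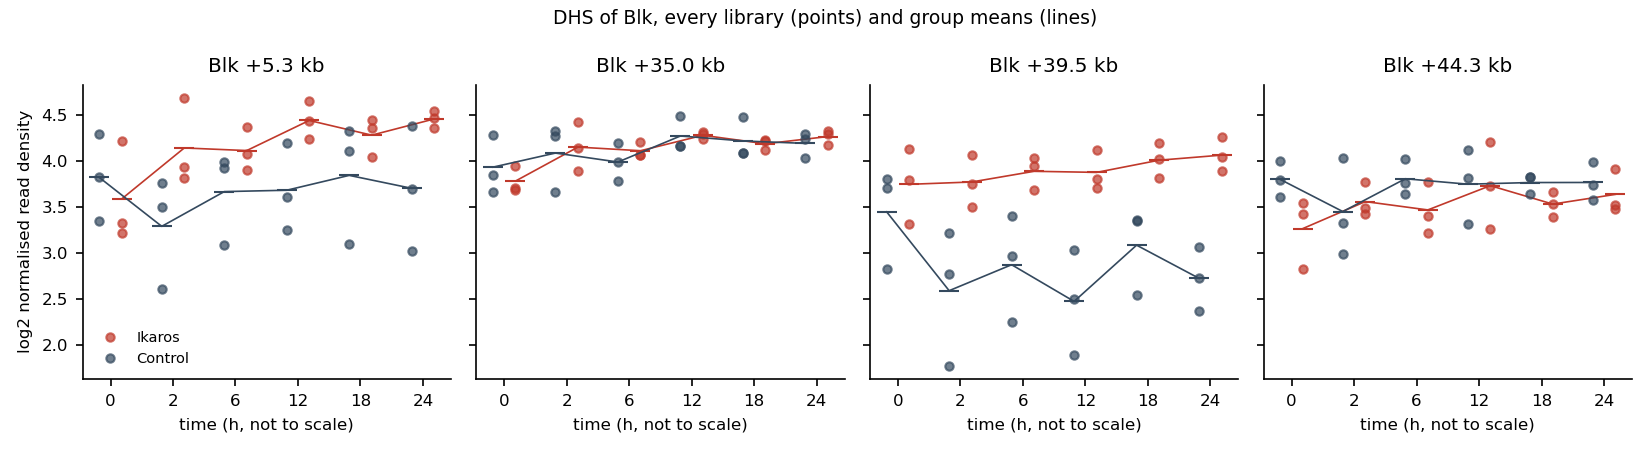
Accessibility of the 4 Blk DHS in every library, as log2 normalised read density against time in h, with red for Ikaros and dark blue for control cells and lines through the group means of 3 libraries. At +39.5 kb the red points from 2 h on (3.49 to 4.25) lie above all dark points of those times (1.77 to 3.40), while at +35.0 kb the lines overlap.

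Syk, the cytoplasmic kinase that the phosphorylated Cd79 tails recruit, had 2 sites more accessible and 1 less accessible of 12. The intronic DHS 17.3 kb from its start (chr13:52600206-52600719) ran from 3.55 to 4.08 in the Ikaros and from 2.87 to 3.69 in the control libraries from 2 to 24 h, with medians of 3.84 and 3.29. Its averaged difference of 0.54 ± 0.10 (SE, adjusted p = 0.000164, limma) was called in 41 of 41 alternatives. The lines differed there at 0 h too, at 3.89, 4.04 and 3.99 in Ikaros against 3.34, 3.24 and 2.86 in control cells, by 0.83 (adjusted p = 0.0145), a call lost in 6 alternatives, among them without Control 0h replicate 6 (adjusted p = 0.0986).

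Further into the same gene the direction was the opposite. The intronic DHS at 41.1 kb (chr13:52623993-52624499) ran from 4.04 to 4.58 in Ikaros and from 4.25 to 5.19 in control libraries, and differed by -0.41 ± 0.08 (SE, adjusted p = 0.000516, limma), again in 41 of 41 alternatives. A narrow site at 1.7 kb was higher by 0.44 (adjusted p = 0.0177), a call lost without replicate 4, 5 or 6. The strongest Syk promoter DHS, at 0.4 kb, ran from 3.79 to 4.65 in Ikaros and from 3.85 to 5.25 in control cells and was not called (-0.29 ± 0.13, adjusted p = 0.0806), although it was called without Control 12h replicate 5, Control 18h replicate 4 or Ikaros 24h replicate 4.

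Plcg2, the phospholipase that opens the calcium arm, had 3 sites higher and 3 lower of 15. The higher ones lay in introns at 31.1, 38.8 and 64.5 kb, with averaged differences of 0.39 (adjusted p = 0.00222), 0.63 (0.0227) and 0.37 (0.0312, limma). The site at 38.8 kb had the widest spread of those called, from 0.50 to 4.00 in the control and from 2.57 to 4.09 in the Ikaros libraries, and was not called after quantile normalisation (0.22), with trends in level, GC content and width removed (0.33, adjusted p = 0.24) or without replicate 6. The call at 64.5 kb was lost in 14 of 41 alternatives. The lower ones were the upstream flank at -3.2 kb (-0.42 ± 0.10, adjusted p = 0.00313), the promoter DHS at 1.1 kb (-0.29 ± 0.10, adjusted p = 0.0232) and an intron at 28.1 kb (-0.35 ± 0.08, adjusted p = 0.00135, limma). The upstream site ran from 4.48 to 5.05 in Ikaros and from 4.48 to 6.00 in control libraries, so the groups overlapped, and its call was lost without replicate 6. The promoter call at 1.1 kb was lost after quantile normalisation (-0.15), with trends in level, GC content and width removed (-0.10, adjusted p = 0.438) and without replicate 5 or 6. The stronger Plcg2 promoter DHS, at the gene start, stood at 0.17 ± 0.12 (adjusted p = 0.273), and was called higher after quantile normalisation (0.31, adjusted p = 0.0346) and without Control 2h replicate 4 (0.26, adjusted p = 0.0454).

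Pik3ap1, the adaptor also known as BCAP that binds PI3 kinase, had 3 intronic sites higher and its main promoter lower, of 14. The promoter DHS at -0.3 kb (chr19:41385173-41385685) ran from 4.98 through 5.28 to 5.45 in Ikaros and from 5.15 through 5.64 to 6.24 in control libraries from 2 to 24 h. The ranges overlapped, and the averaged difference was -0.41 ± 0.10 (SE, adjusted p = 0.00294, limma), lost without replicate 5 and after trends with level, GC content and width were removed (-0.18, adjusted p = 0.0994). At 0 h the Ikaros libraries were at 5.70, 5.92 and 5.72 and the control libraries at 5.81, 5.32 and 4.89, and the difference of 0.44 was not called. The higher introns were those at 12.6 kb (0.45), 30.6 kb (0.36) and 39.9 kb (0.28), with adjusted p of 0.00933, 0.00343 and 0.0157 (limma).

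**Figure D3:**
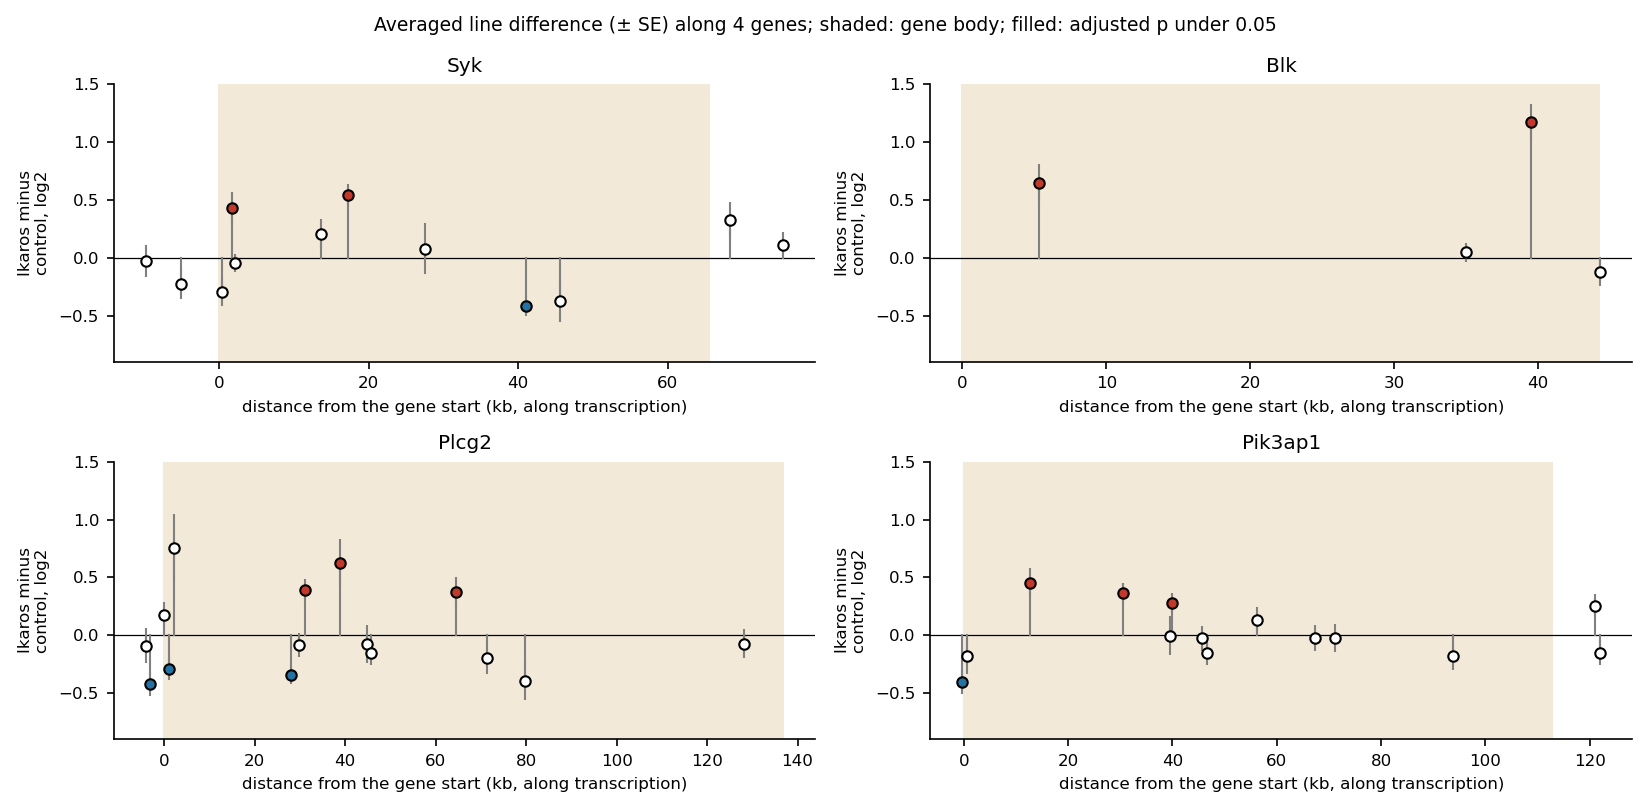
Averaged difference between the lines (log2, ± 1 SE) against distance from the gene start in kb along the direction of transcription, for Syk, Blk, Plcg2 and Pik3ap1, with the gene body shaded and filled symbols for an adjusted p below 0.05. In Pik3ap1 the filled site at the start lies below 0 (-0.41) and the 3 filled introns lie above it (0.28 to 0.45), whereas Plcg2 has 3 filled sites on each side.

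Ptpn6, the phosphatase SHP-1, had its upstream promoter called lower and no site called higher of 6. That DHS (chr6:124738440-124738989) ran from 4.34 through 4.65 to 5.05 in Ikaros and from 4.61 through 4.95 to 5.48 in control libraries. The averaged difference of -0.33 ± 0.07 (SE, adjusted p = 0.00134, limma) was called in 41 of 41 alternatives. At 0 h its libraries were at 5.03, 5.11 and 5.18 in Ikaros and at 5.02, 5.01 and 4.75 in control cells, with a difference of 0.18 that was not called. The second promoter DHS, at a start site 5.6 kb inside the gene, was higher in level and was not called (-0.14 ± 0.12, adjusted p = 0.427).

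At the receptor chains 3 of 11 sites were called, 1 of 4 for Cd79a and 2 of 7 for Cd79b. These signalling chains had no call at their own promoters. The Cd79a promoter DHS ran from 5.00 to 5.36 in Ikaros and from 4.89 to 5.71 in control libraries and differed by -0.17 ± 0.08 (SE, adjusted p = 0.122, limma), although it was called without replicate 4 (-0.22, adjusted p = 0.0471) or without Control 12h replicate 4 (-0.21, adjusted p = 0.0331). The stronger Cd79b promoter DHS ran from 4.73 to 5.34 and from 4.51 to 5.65 and differed by -0.09 ± 0.10 (adjusted p = 0.501). Within 10 kb of Cd79a, 1 of 2 Arhgef1 promoter DHS was lower (-0.30, adjusted p = 0.049), a call lost in 29 of 41 alternatives and with the replicate block (adjusted p = 0.0517). Near Cd79b, a narrow downstream DHS was higher by 0.49 ± 0.14 (adjusted p = 0.0106) and the DHS at the Gh promoter lower (-0.30, adjusted p = 0.0299), calls lost in 2 and 11 of 41 alternatives.

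None of the 5 DHS of Blnk, the adaptor that Syk phosphorylates, and none of the 9 of Lyn, a Src-family kinase that acts both early in the signal and on its inhibitory receptors, was called in the averaged difference. The Blnk promoter ran from 4.75 to 5.03 in Ikaros and from 4.58 to 5.24 in control libraries, and differed by -0.10 ± 0.07 (SE, adjusted p = 0.267, limma). The strongest of 3 Lyn promoter DHS ran from 4.17 to 4.97 and from 4.27 to 5.51 and differed by -0.09 ± 0.12 (adjusted p = 0.614). The differences at the strongest promoters of Cd79a, Cd79b, Blnk and Lyn were small and turned to between 0.01 and 0.10 under quantile normalisation or removal of trends, so no direction is given for them.

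By level, the strongest own promoters stood in the order Pik3ap1 (5.49), Ptpn6 (5.41), Cd79a (5.27), Cd79b (5.06), Plcg2 (4.95), Blnk (4.88), Lyn (4.70) and Syk (4.42), as means over 36 libraries. Each neighbour in this order differed from the next by 0.07 to 0.28, within the SD of that difference over single libraries, which was 0.22 to 0.41. The order of neighbours held in 20 to 31 of 36 libraries, most often for Lyn above Syk (31) and Cd79a above Cd79b (30), and it was not tested. Among all promoter DHS of the table the Pik3ap1 site stood at the 88.3 percentile and the Syk site at the 43.7 percentile. The ranked sites ran in width from 118 bp (Lyn) to 601 bp (Cd79a), and the part of width in the order was not tested. The wider DHS at the gene starts of Lyn (514 bp) and Ptpn6 (549 bp) stood at 4.54 and 4.86.

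**Figure D4:**
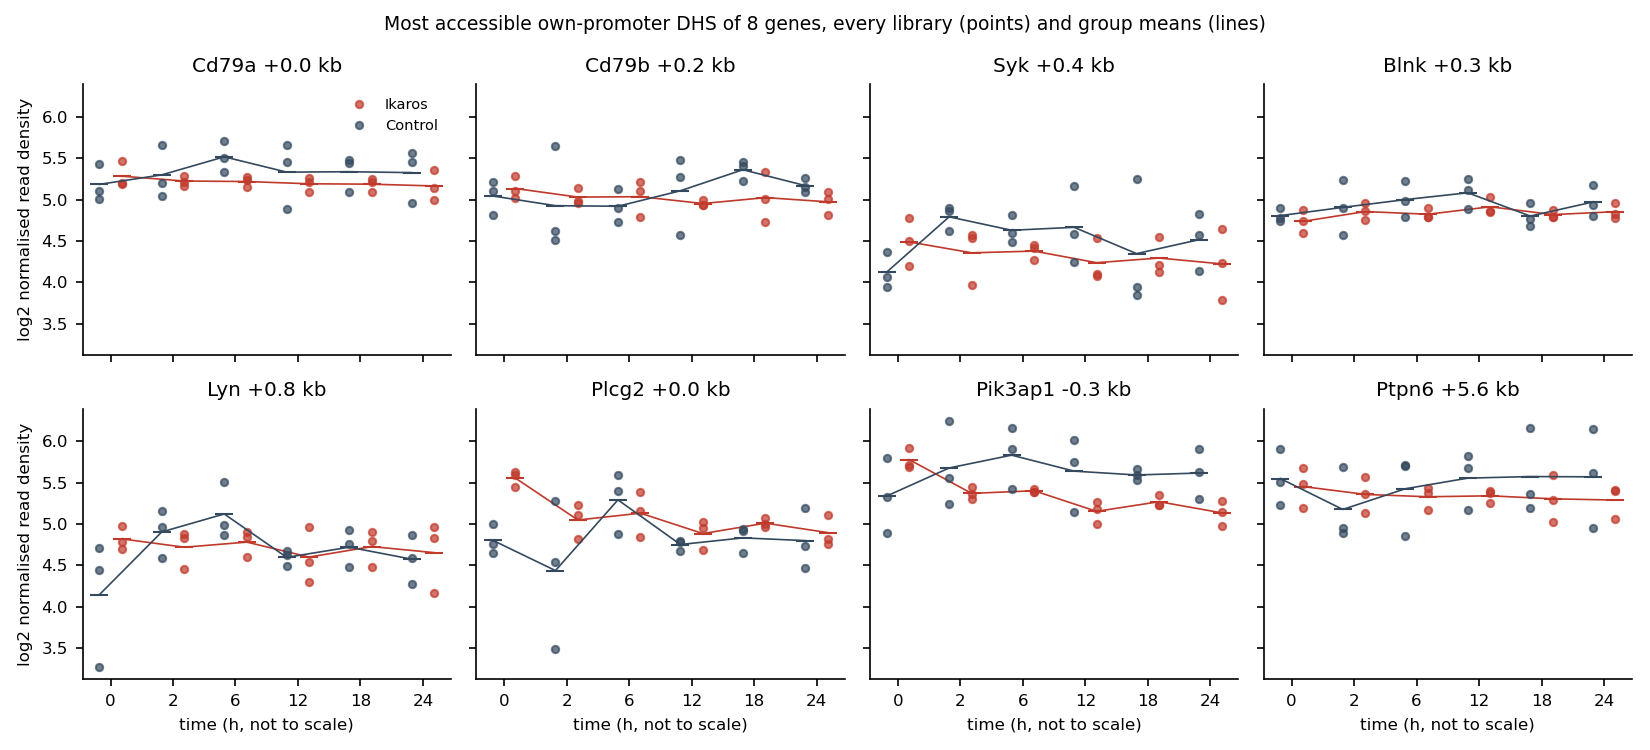
Log2 normalised read density of the most accessible own-promoter DHS of 8 genes in every library against time in h, with lines through the means of 3 libraries, red for Ikaros and dark blue for control cells. Of the 8 panels Pik3ap1 is the 1 whose averaged difference was called (-0.41), and from 2 h on the control points spread more widely than the Ikaros points in all 8.

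The called sites were chosen by the average over the 5 times with drug. Agreement in sign over those times was largely set by that choice. Of the 11 sites called higher over 2 to 24 h, 11 were above 0 at each of the 5 times with drug and 9 were also above 0 at 0 h, where 4 were called. Of the 8 called lower, 7 were below 0 at each of the 5 times and 4 were below 0 at 0 h, where 0 were called (1 of these 4, Plcg2 at -3.2 kb, stood at about 0). The exception with drug was the Arhgef1 promoter DHS near Cd79a, at 0.07 at 2 h. The called promoters of Pik3ap1 (0.44), Plcg2 at 1.1 kb (0.24) and Ptpn6 (0.18) stood above 0 at 0 h, without a call.

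At 0 h, 10 of 76 members were called, all 10 more accessible in Ikaros cells (13.2%, against 12.9% of all DHS called and 7.81% called higher). The introns among them were those of Plcg2 at 31.1 kb (0.97 ± 0.21, adjusted p = 0.0035), Pik3ap1 at 39.9 kb (0.94 ± 0.20, adjusted p = 0.00269) and 30.6 kb (0.63), Syk at 17.3 kb (0.83), Blnk at 31.4 kb (0.69) and Lyn at 5.0 kb (0.51). The others were the Ptpn6 upstream flank, over an exon of Atn1 (0.62), and 3 promoters of the neighbours Tm9sf3, Emg1 with Phb2, and Arhgef1 (0.77, 0.61 and 0.57). In the Plcg2 intron the Ikaros libraries were at 4.79, 4.84 and 4.68 and the control libraries at 3.97, 3.82 and 3.61, with no overlap. At 0 h the triplets were fully separate, in either direction, for 30.3% of members and 23.6% of all DHS. None of the 15 own promoters was called at 0 h, although 12 had a positive difference, with a median of 0.18 against 0.34 over all promoter DHS, of which 24.8% were called higher. With the replicate block the sites of Arhgef1, Lyn and Pik3ap1 at 30.6 kb were no longer called (adjusted p = 0.0566, 0.0563 and 0.0526), and the Plcg2 promoter DHS at the gene start was called (0.0465, against 0.0513 without the block). The count of 10 fell to 3 without Control 0h replicate 6, to 6 without Ikaros 0h replicate 4 or 5, to 2 with a spread per group and to 0 when only the 0 h groups were fitted.

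At single times with drug hardly any member was called. At 2 h none passed (0 of 76, against 0.195% of all DHS). At 6 h the count was 0 (0.578% of all), at 12 h 1 (1.31%), at 18 h 0 (0.699%) and at 24 h 1 (1.33%). At an unadjusted p below 0.05 the limma counts from 2 h to 24 h were 7, 11, 8, 5 and 9. No share over all DHS is given for that threshold, so no excess is read from these counts. The count at 2 h rose to 1 without Control 2h replicate 4 and to 2 without Control 2h replicate 5, and that at 6 h to 1 without Control 6h replicate 6. The triplets of both lines were fully separate for 11.8% of members at 2 h and 25% at 12 h, against 13.6% and 22.7% of all DHS.

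The change of the line difference from 0 h to 24 h was called for 2 members, against 6.26% of all DHS called and 3.4% called lower. Both fell, and both lay within 10 kb of the Ptpn6 body but outside it. The site upstream of Ptpn6 (-6.9 kb, chr6:124745311-124745909) overlaps an exon of the neighbour Atn1. There the Ikaros libraries were at 5.46, 5.21 and 5.44 at 0 h and the control libraries at 4.35, 5.05 and 4.85. They did not overlap, as for 23.6% of all DHS at 0 h in either direction. From 0 h to 24 h the mean moved by -0.71 in Ikaros and by 0.20 in control cells, and the change of the difference was -0.91 (adjusted p = 0.0286, limma, and 0.038 with the replicate block). At the shared promoter of Emg1 and Phb2, 26.6 kb from the Ptpn6 start, the means moved by -0.54 and 0.23, and the change was -0.77 (adjusted p = 0.0424, and 0.055 with the block, where it was no longer called). After trends with level, GC content and width were removed these changes were -0.16 and -0.02, and neither was called. The upstream call was also lost without Control 0h replicate 4, Control 24h replicate 4, Ikaros 0h replicate 4, or Ikaros 24h replicate 5 or 6, and the Emg1 and Phb2 call in 16 of 22 alternatives.

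No member was called in the F-tests. The counts were 0 for the interaction of line and time (1.1% of all DHS), 0 for a time effect within the Ikaros line (2.29%) and 0 for one within the control line (0.148%). At an unadjusted p below 0.05 they were 5, 5 and 4 members (limma), also without a share over all DHS beside them. With only the Ikaros groups fitted, 4 members passed for a time effect (4 of 76, against 7.52% of all DHS).

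Other genes of the pathway were read at their promoters. Of 38 further genes 31 had a promoter DHS, 42 sites in all, of which 4 were called higher (9.52%) and 10 lower (23.8%) over 2 to 24 h, with a median of -0.05. Over all promoter DHS these shares were 11.3% and 16.0%, with a median of -0.01. The alternatives were read for the members only, so how far the calls at these 42 sites hold under them was not tested. The surrogate light chain genes, which pair with the heavy chain in the pre-B receptor, had 0 higher and 3 lower of 4 sites, among them Igll1 (-0.65, adjusted p = 6.14e-06, limma). Vpreb1 (-0.45) and Vpreb2 (-0.65) are near-identical copies, so reads from stretches that they share may be dropped or misplaced. Kinases had 0 higher and 5 lower of 11 sites, in Fyn, Pik3cd and Akt1, of which the Fyn site at chr10:39370558-39371058 was at -0.57 (adjusted p = 0.00215). The higher sites were at Dok3 (0.47), an adaptor that dampens the signal, the inhibitory receptors Cd22 (0.43) and Fcgr2b (0.22), and Nfatc1 (0.30), a calcium-responsive transcription factor. Cd72, another inhibitory receptor, was lower (-0.28, adjusted p = 0.00375), and none of the 5 sites of Inpp5d, Cbl, Cblb and Ptpn22, which limit the signal inside the cell, was called over these times. At 0 h 7 of the 42 were called, all 7 higher (16.7%, against 24.8% of all promoter DHS).

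The promoters with the most similar course over the 12 group means were named as a description. Fancb with Mospd2 followed the Cd79a promoter (Pearson r = 0.997), Rps6ka2 that of Pik3ap1 (0.990), Gstt2 that of Syk (0.989), Tmem249 that of Blnk (0.974), Kctd21 with Usp35 that of Lyn (0.971), Chst3 that of Plcg2 (0.968), Etv2 that of Cd79b (0.964) and Pafah1b2 that of Ptpn6 (0.960). The group means span 6 dimensions after the authors' correction, which makes high values common: 442 promoters exceeded 0.9 with Pik3ap1 and 10 with Cd79b.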

How the data were processed

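DNase-seq of 36 libraries was read from 1 deposited table of log2 values. Per the study's methods and labels, the authors aligned reads to mm10 with Bowtie2, called DHS with HOMER in each replicate, merged them, counted reads per merged site with bedtools, scaled them by RPKM and TMM, removed noise with ARSyN and deposited the log2 values. Base 2 was settled from the values, whose sums per library were 369487 to 432755 RPM in base 2 and above 1575615 in base e. Per the labels about 20000000 reads or more were sequenced for each replicate. The totals per library are not in the table, so no counting interval is given and precision rests on how many libraries there are. The correction was made with the groups in place. The p-values take the corrected values as they stand, and the effect of the correction on them was not tested.

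Here linear models were fitted in R 4.3.3 by the package limma 3.58.1 (empirical Bayes with an intensity trend; 12 group means, 1 shared spread; Benjamini-Hochberg over 52788 DHS) and tested on simulated data. By the study's methods the time course was run again in each batch to give the replicates. Replicate numbers mark these batches. Deviations of same-numbered libraries did not correlate (median r -0.01, 198 pairs, against 0.01 for 396 others). Since ARSyN had already been applied to these values, that correlation cannot tell whether libraries of a batch shared noise before it. The members, gene lists and tests were chosen with earlier results of these data known. Some genes of the marker and pathway lists are not reported here, and the counts leave them out. Sites were named by rule: the strongest own promoter of each gene, up to 3 largest called values in each direction of the averaged, 24 h, 0 h and 0 h to 24 h contrasts, and the promoter of another gene most correlated over group means. Further called sites were named after their values were seen. Alternatives were a replicate block, quantile normalisation, removal of trends, a spread per group, no intensity trend, a filter on the lowest 25% of levels, fewer groups in the fit, leaving out replicates, and 1 mean per line and batch (chosen after seeing the data).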

Additional observations from a re-analysis of the deposited data

Results flagged for a closer look

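For 2 sites the difference between the lines was not the same at 0 h and at 24 h by a test of that change itself (limma over all DHS). Upstream of Ptpn6 at chr6:124745311-124745909 the change was -0.91 (adjusted p = 0.0286), with the Ikaros line above the control line by 0.62 at 0 h. At the shared promoter of Emg1 and Phb2, chr6:124711828-124712483, it was -0.77 (adjusted p = 0.0424), with the Ikaros line above by 0.61 at 0 h. The call at the shared promoter was lost with the replicate block (adjusted p = 0.055), and with trends in level, GC content and width removed the changes were -0.16 and -0.02, neither of them called. Both sites lie within 10 kb of the Ptpn6 body but outside it, and the upstream site overlaps an exon of Atn1. Groups of 3 libraries were not searched for outlying samples.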

How the results depend on the processing

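The count of 19 sites called over 2 to 24 h was 18 with the replicate number as a block, 24 with 1 mean per line and batch and 16 to 24 over the settings that kept all libraries, and 11 to 21 when a replicate or library was left out, the 11 without replicate 5 and without replicate 6. Over all DHS the share called was 29.5% with all libraries, 16.3% without replicate 5 and 15.1% without replicate 6. Of the 19 calls, 4 were held in every alternative that could be run for them, 12 were lost in 1 to 4 and 3 in more, and 0 reversed. The median over the members stayed between -0.09 and -0.04 without a replicate and became 0.01 by quantile normalisation and by removal of trends (level, GC content, width). The 24 h count of 1 became 0 with the block, quantile normalisation, removal of trends, the low filter (which removes that Blk site) and any replicate left out (0 to 0). The 12 h count of 1 became 0 with those settings and when only its groups were fitted, and was 0 to 1 without a replicate. The counts of 0 were 0 to 1 at 6 h and 0 to 2 at 2 h without a replicate, and 0 in all settings at 18 h, for the interaction and for time in control cells. The count for time in the Ikaros line was 4 with only its groups fitted. The 0 h count of 10 was 5 with trends removed, 2 with a spread per group, 0 with only its groups fitted and 1 to 9 without a replicate (5, 3 and 1 without replicates 4, 5 and 6). The 0 h share of all DHS, 12.9%, was 2.95% with trends removed and 4.72%, 9.25% and 2.88% without replicates 4, 5 and 6. The count of 2 for the change from 0 h to 24 h was 1 with the block, with a spread per group and with no intensity trend, 0 with quantile normalisation, removal of trends or only its groups fitted, and 0 to 3 without a replicate. It was 1 without Control 0h replicate 6, Control 24h replicate 4 or 6, Ikaros 0h replicate 4 or Ikaros 24h replicate 4, and 0 without Ikaros 24h replicate 5 or 6. Pairing by replicate number changed 1 call of the averaged difference, those at 12 h and 24 h, 4 at 0 h (8 called) and 1 of the change, each given in the report, and no other. Uncalled promoter differences turned positive with quantile normalisation and with trends removed at Cd79b (0.0718 and 0.1017), Blnk (0.0394 and 0.0824), Lyn (0.0182 and 0.0169) and Cd79a (0.0114 and 0.0070), and with quantile normalisation at the inner Ptpn6 start (0.0536). The Lyn value was -0.2117 to 0.0480 without a replicate. The cause of these shifts was not tested, and without read totals per library no counting limit is given.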
